A study of Mus musculus with 4 samples.

Results

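The heptad is a group of transcription factors that occupy many enhancers together in blood stem and progenitor cells, here with a few of their partners. A gene belonged if it was one of GATA2, TAL1, LYL1, LMO2, RUNX1, FLI1 or ERG (genes Gata2, Tal1, Lyl1, Lmo2, Runx1, Fli1 and Erg), or one of the partners Gfi1b, Etv6 and Ldb1. All 10 were measured, out of 18193 genes in the series, on 19 probe sets whose platform annotation names that gene alone. Each gene is represented by its probe set of highest average over the 4 arrays, and every other probe set is reported beside it. An Affymetrix probe set is a group of short probes against 1 stretch of a transcript, so probe sets of 1 gene can read different parts or isoforms of its RNA, and levels of different probe sets or genes are not comparable.

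The series concerns HUWE1, a ubiquitin ligase, in blood stem cells, and these arrays ask how stem cells with much and with little N-myc protein differ in their RNA. Both groups came from the marrow of mice that carry a transgene in which N-myc is fused to the red fluorescent protein mCherry. Haematopoietic stem cells (HSCs) were sorted as negative for lineage markers and CD48 and positive for Sca-1, Kit and CD150, put straight into Trizol with no culture and no treatment, and split by mCherry into N-myc high and N-myc low. Each group has 2 arrays, labelled mouse 1 and mouse 2. The labels give no strain or age and do not say whether marrow was pooled, and mCherry stands for N-myc only as far as the fusion reports it. From each sample 5 ng of RNA was amplified before hybridisation. In such a bulk sample, fewer cells of a type and less RNA per cell cannot be told apart.

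GATA2 is a zinc finger factor that binds GATA sites. TAL1 and LYL1 are related basic helix-loop-helix factors that pair with E proteins on E-boxes. LMO2 does not bind DNA itself but bridges TAL1 and GATA factors, and LDB1 binds LMO2 and, by joining to itself, links distant DNA elements. RUNX1 binds DNA with its partner CBFB, and FLI1 and ERG are ETS factors. GFI1B is a repressor that recruits the histone demethylase LSD1, and ETV6 is an ETS repressor needed to keep stem cells in adult marrow. The genes of several of these proteins carry enhancers that the group itself occupies. Letters for such factors were read here only near transcription starts, and enhancers elsewhere were not read.

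Promoters of 250 bases before and 50 after a transcription start were taken from the RefSeq table of build GRCm38.p6, which holds 15 promoters for 8 of the 10 genes and none for Lmo2 and Fli1. The GATA hexamer AGATAA, read on both strands, was in 3 of the 15, one each of Erg, Ldb1 and Tal1, against 11.2% of all 32851 promoters in the table. Its variant TGATAA, searched after the promoters had been read, was in 1, that of Gfi1b, against 9.05% of all. The stretches before the start of these 4 promoters are shown because they set GATA letters beside genes with differences of either sign. Capitals mark AGATAA, which reads as TTATCT on the other strand, then TGATAA, and the ETS core GGAAG, which reads as CTTCC on the other strand.
Erg, chr16:95459349-95459598, minus strand: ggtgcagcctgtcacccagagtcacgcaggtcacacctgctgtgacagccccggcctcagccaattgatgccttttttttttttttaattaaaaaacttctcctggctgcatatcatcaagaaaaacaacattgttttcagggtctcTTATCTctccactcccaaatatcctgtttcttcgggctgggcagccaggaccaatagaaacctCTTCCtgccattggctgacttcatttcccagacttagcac
Ldb1, chr19:46037071-46037320, minus strand: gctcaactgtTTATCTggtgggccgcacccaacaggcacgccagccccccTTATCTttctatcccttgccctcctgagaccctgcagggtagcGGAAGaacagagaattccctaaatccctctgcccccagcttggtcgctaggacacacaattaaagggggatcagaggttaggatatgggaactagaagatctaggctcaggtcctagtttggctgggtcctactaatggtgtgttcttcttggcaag
Tal1, chr4:115056176-115056425, plus strand: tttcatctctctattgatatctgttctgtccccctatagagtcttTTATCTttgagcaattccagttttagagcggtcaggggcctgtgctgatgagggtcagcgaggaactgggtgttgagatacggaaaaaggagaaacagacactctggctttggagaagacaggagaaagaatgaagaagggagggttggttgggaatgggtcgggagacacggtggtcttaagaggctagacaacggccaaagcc
Gfi1b, chr2:28621983-28622232, minus strand: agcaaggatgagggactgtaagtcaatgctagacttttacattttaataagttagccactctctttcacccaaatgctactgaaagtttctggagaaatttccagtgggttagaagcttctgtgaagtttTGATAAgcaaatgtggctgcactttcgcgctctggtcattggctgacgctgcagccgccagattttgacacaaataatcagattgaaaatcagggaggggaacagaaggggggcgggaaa
In the Erg promoter the GATA hexamer began 103 bases and the ETS core 40 bases before the start. In Ldb1 the hexamer occurred 2 times, from 240 and 200 bases before the start, with the ETS core from 157 bases before it. In Tal1 it began 205 bases before the start, and in Gfi1b TGATAA began 120 bases before it. The ETS core GGAAG was in 8 of the 15 promoters and in 71.4% of all promoters. The E-box CANNTG was in 7 and in 72.3% of all, and its form CAGCTG, which is a special case of CANNTG, in 1 (Gata2) and in 16.3% of all. The RUNX hexamer TGTGGT was in 1, of Runx1 itself and after the start, and in 16.8% of all, and the GFI letters AATCACT were in 0 and in 3.18% of all. These matches describe letters in a window and show no binding.

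Across the arrays, the median log2 intensity of all probe sets lay between 5.26 and 5.32. The bioB and bioC controls, added to each sample at hybridisation, averaged 10.85 and 10.81 on the N-myc high arrays (mouse 1 and 2, in this order throughout, and called the high arrays from here on) and 11.05 and 11.67 on the N-myc low arrays (the low ones), so the N-myc low array of mouse 2 stood apart. Xist, expressed from the inactive X chromosome of females, was at 11.38 and 3.84 on the high arrays against 11.10 and 3.70 on the low ones, while the Y-linked Eif2s3y was at 8.53 and 9.40 on the high arrays against 8.43 and 9.67 on the low ones. Both mouse 1 arrays thus carried female and male transcripts, and whether they hold RNA of 1 animal cannot be told. Mycn, the gene behind the sort, was at 10.48 and 10.39 on the high arrays against 9.44 and 9.65 on the low ones, a difference of 0.89 (SE 0.189, limma adjusted p = 0.762).

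The members differed little between the fractions and in both directions. On their representative probe sets, Gata2, Gfi1b, Ldb1 and Runx1 were lower on both N-myc high arrays than on both N-myc low arrays. Lmo2 and Fli1 were higher on both, and all these differences were 1.11- to 1.25-fold. Every other probe set of Runx1 and Fli1 overlapped between the groups. Erg, Etv6, Tal1 and Lyl1 overlapped between the groups on the probe set that stands for the gene, although a second probe set of Erg was 1.54-fold higher without overlap. In limma, 0 of the 10 members and 0.00% of all genes had an adjusted p below 0.05. At an unadjusted p under 0.05 there were 0 of the 10 members by limma, against 1148 of all genes (6.31%). Permuting 4 arrays exactly could give a two-sided p of 0.333 at best, so every p printed comes from limma, which pools the spread across genes.

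**Figure D1:**
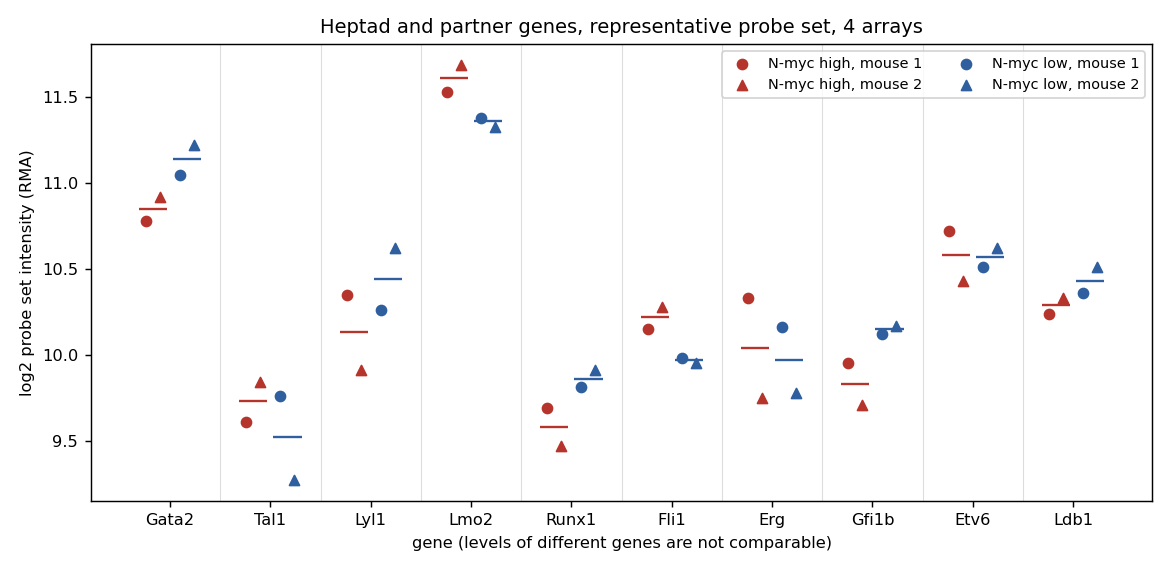
Log2 probe set intensity (y axis) of the representative probe set of each member (x axis) on the 4 arrays. Red marks N-myc high and blue N-myc low, circles mouse 1 and triangles mouse 2, and the short lines are group means of 2 arrays. The red marks lie below the blue ones for Gata2, Runx1, Gfi1b and Ldb1 and above them for Lmo2 and Fli1.

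Of the 10 members, 4 had both high arrays below both low ones, where 20.8% of all genes did, and 2 had them above, where 15.6% did. In either direction that is 6 of 10 beside 36.4% of all genes and 37.1% of the brighter 50% of genes. By mouse, 4 were lower in both (29.7% of all genes), 2 were higher in both (23.2%) and 4 changed sign between the mice. The median difference of the members was -0.07, beside -0.03 for all genes. The median size of the difference was 0.25, beside 0.20 for all genes and 0.23 for the brighter 50%. Their arrays of 1 group lay close together. The median SD within groups was 0.12 for the members, 0.23 for all genes and 0.26 for the brighter 50%. The members were also brighter, with array means of 10.23 to 10.34 against 8.29 to 8.35 for the brighter 50%. Genes as bright as the members were not compared. The mean shift from mouse 1 to mouse 2 was larger than the difference between fractions for 2 of the 10 members and for 47.1% of all genes. The mean over the 10 members was 10.34 and 10.23 on the N-myc high arrays and 10.34 on both N-myc low arrays, so the members taken as a group lay at nearly the same level in both fractions.

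**Figure D2:**
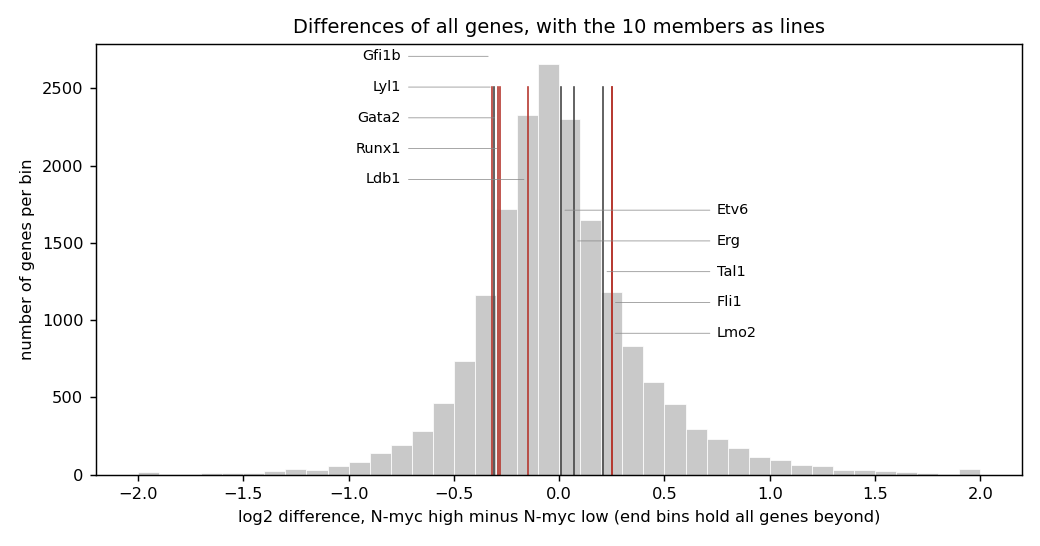
Histogram of the log2 difference N-myc high minus N-myc low for 18193 genes (x axis, bins of 0.1, y axis the number of genes per bin), with a vertical line for each of the 10 members, red where the arrays of the groups do not overlap and dark grey where they do; the end bins hold all genes beyond them. All 10 lines lie between -0.32 and 0.25, inside the bulk of the genes.

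Among the DNA-binding members, Gata2 had log2 intensities of 10.78 and 10.92 on the high arrays against 11.05 and 11.22 on the low ones. The high arrays both lay below the low ones, and the order held within each mouse, with differences of -0.27 in mouse 1 and -0.30 in mouse 2. The group means were 10.85 ± 0.0998 and 11.14 ± 0.119 (SD, n = 2), a difference of -0.29 (SE 0.187, 95% confidence interval -0.78 to 0.21, limma adjusted p = 0.826). The second Gata2 probe set, 1450333_a_at, read 10.60 and 10.93 on the high arrays against 10.98 and 11.18 on the low ones. It gave -0.32 (SE 0.221), again without overlap between the groups. Gata2 was thus the one member for which more than 1 probe set was measured and all of them separated the groups in the same direction.

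Tal1, the helix-loop-helix partner of GATA2 in the complex, was at 9.61 and 9.84 on the high arrays against 9.76 and 9.27 on the low ones. The difference of 0.21 (SE 0.25, limma adjusted p = 0.901) came from mouse 2, where it was 0.57, while mouse 1 gave -0.15. It was -0.04 without the N-myc low array of mouse 2, the array whose hybridisation controls stood apart. Its relative Lyl1, which can stand in for Tal1 in adult stem cells, was at 10.35 and 9.91 on the high arrays against 10.26 and 10.62 on the low ones. The groups overlapped, with differences of 0.10 in mouse 1 and -0.71 in mouse 2, and the mean difference was -0.31 (SE 0.257, limma adjusted p = 0.849). Neither gene had the same sign in both mice.

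Runx1, a factor required for the first blood stem cells of the embryo, was read by 6 probe sets. The representative one, 1422864_at, was at 9.69 and 9.47 on the high arrays against 9.81 and 9.91 on the low ones. Here both high arrays lay below the low ones, with a mean difference of -0.28 (SE 0.189, 95% confidence interval -0.78 to 0.22, limma adjusted p = 0.826). Of the 6 probe sets 4 were lower and 2 were higher, and each of the other 5 overlapped between the groups. The next brightest, 1422865_at, gave 0.37 (SE 0.344), with 10.10 and 9.53 on the high arrays against 9.11 and 9.77 on the low ones. Its sign was that of mouse 1 (0.98), against -0.24 in mouse 2. Probe set 1440878_at gave 0.47 (SE 0.489), with a single array, N-myc high of mouse 1, at 9.22 while the other 3 lay between 7.88 and 8.11. The remaining ones, 1427650_a_at, 1452530_a_at and 1452531_at, gave -0.17, -0.18 and -0.75, the last with an SE of 0.741 and arrays between 5.27 and 7.49. Averaged over all its probe sets, the Runx1 difference was -0.09, so its separation rests on the choice of probe set.

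Fli1, an ETS factor of blood and endothelium, was at 10.15 and 10.28 on the high arrays against 9.98 and 9.95 on the low ones. The fractions separated, with 0.25 on average (SE 0.177, 95% confidence interval -0.22 to 0.72, limma adjusted p = 0.83), 0.17 in mouse 1 and 0.33 in mouse 2. The other Fli1 probe set, 1422024_at, had equal means of 9.41 in both groups, with -0.35 in mouse 1 and 0.35 in mouse 2. The mean of both probe sets differed by 0.12.

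Erg, the ETS factor closest to Fli1, was read by 2 probe sets that gave different pictures. Its representative, 1425370_a_at, was at 10.33 and 9.75 on the high arrays against 10.16 and 9.78 on the low ones. There the mice differed more than the fractions, with mouse 2 below mouse 1 by 0.58 among the high arrays and by 0.39 among the low ones, and the difference between fractions was 0.07 (SE 0.289, limma adjusted p = 0.983). Probe set 1440244_at was at 9.85 and 9.99 on the high arrays against 9.33 and 9.27 on the low ones. On it the fractions separated, with 0.52 in mouse 1 and 0.72 in mouse 2, and almost no shift between mice. The difference was 0.62 (SE 0.188, 95% confidence interval 0.12 to 1.13, limma unadjusted p = 0.0256, adjusted p = 0.775 over 34945 probe sets). Of the 19 member probe sets it was the 1 at an unadjusted p under 0.05, where 6.32% of all probe sets were (3.36% higher and 2.96% lower). The sign held in 9 of 9 alternatives, with differences of 0.55 to 0.70, but most of these could not have changed it. Leaving out 1 array could not, since the groups did not overlap. The mouse block, the trended robust prior and the brighter 50% leave the mean difference unchanged. Limma adjusted p was 0.74 to 0.813 in the alternatives that kept all arrays. The unadjusted limma p was under 0.05 in 4 of the 9. It was 0.0502 with the mouse as a block and between 0.0644 and 0.113 when any 1 of the arrays was left out. The mean of both Erg probe sets differed by 0.34. Which transcripts of Erg each probe set reads was not determined here.

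**Figure D3:**
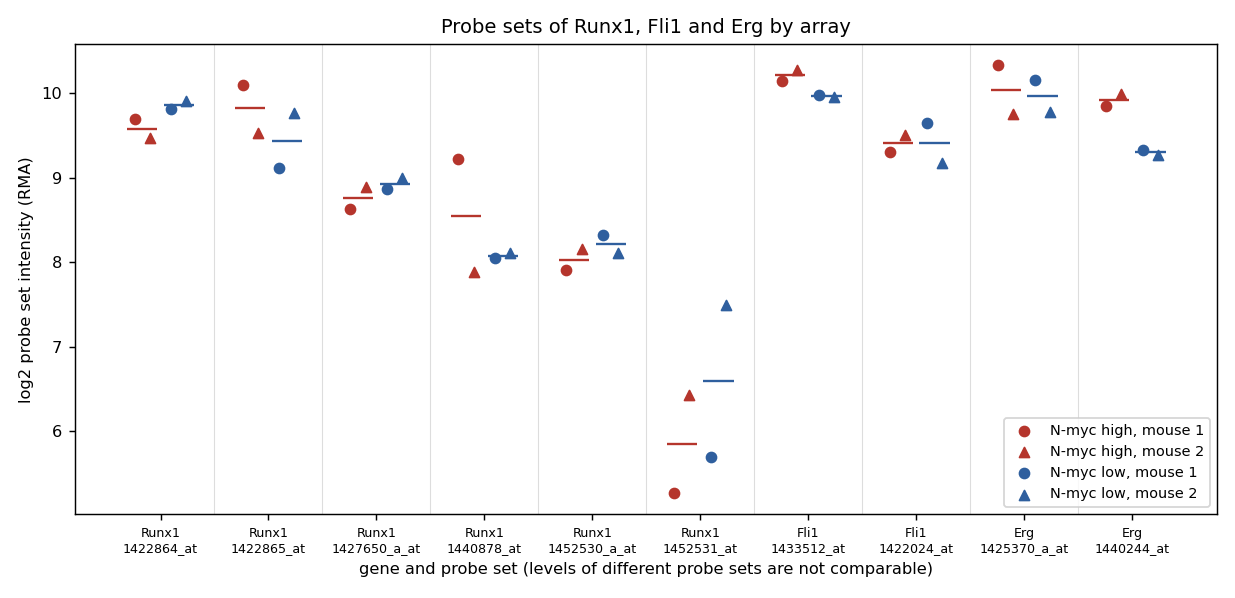
Log2 intensity (y axis) of the 6 probe sets of Runx1, 2 of Fli1 and 2 of Erg (x axis) on the 4 arrays, with red for N-myc high, blue for N-myc low, circles for mouse 1, triangles for mouse 2 and lines for group means. The groups separate on Runx1 1422864_at, Fli1 1433512_at and Erg 1440244_at and overlap on the other 7 probe sets.

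Of the bridging proteins, Lmo2 was at 11.53 and 11.69 on the high arrays against 11.38 and 11.33 on the low ones. The high arrays lay higher in each mouse, with 0.15 in mouse 1 and 0.36 in mouse 2. The group means of 11.61 ± 0.112 and 11.36 ± 0.0312 (SD, n = 2) differed by 0.25 (SE 0.18, 95% confidence interval -0.22 to 0.73, limma adjusted p = 0.83). Ldb1, which binds Lmo2 in the complex, was at 10.24 and 10.33 on the high arrays against 10.36 and 10.51 on the low ones. The N-myc high arrays lay lower by a narrow margin, -0.15 on average (SE 0.182, limma adjusted p = 0.906). The groups overlapped for Ldb1 once each array was centred on its own median, and the difference was -0.07 without the N-myc low array of mouse 2. Both genes rest on 1 probe set each.

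Of the repressors, Gfi1b, which acts in stem cells and in the erythroid and megakaryocyte lines, was at 9.95 and 9.71 on the high arrays against 10.12 and 10.17 on the low ones. The high arrays lay lower in each mouse, with -0.17 in mouse 1 and -0.46 in mouse 2. The mean difference of -0.32 was the largest in size among the 10 members on their representative probe sets (SE 0.19, 95% confidence interval -0.82 to 0.19, limma adjusted p = 0.811). Etv6 was at 10.72 and 10.43 on the high arrays against 10.51 and 10.62 on the low ones. Its groups overlapped, with 0.22 in mouse 1 and -0.19 in mouse 2, and the difference was 0.01 (SE 0.2, 95% confidence interval -0.52 to 0.55, limma adjusted p = 0.998). The other Etv6 probe set, 1423401_at, gave 0.06 (SE 0.208) with the same signs in the mice.

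Over all 19 probe sets of the members, 5 had both high arrays below and 3 had them above, where 20.8% and 15.4% of all probe sets did (36.2% in either direction), and 11 overlapped. Of the 5 members with more than 1 probe set, the separation was shared by all probe sets for Gata2 alone. Etv6 overlapped on both of its probe sets. The intervals leave room for changes that these arrays could not call. In the fit over genes, those of the 10 members reach from -0.99 (Lyl1) to 0.88 (Tal1) on the log2 scale. For the 6 members that separated the groups they reach from -0.82 to 0.73.

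**Figure D4:**
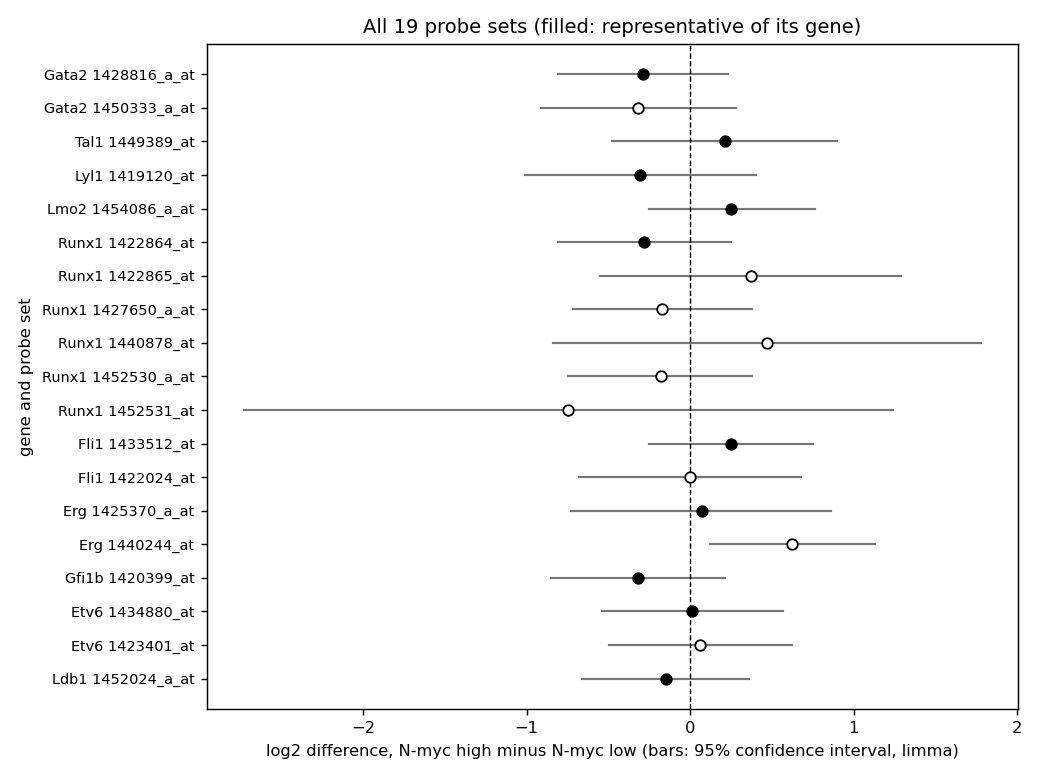
Log2 difference N-myc high minus N-myc low (x axis) of the 19 member probe sets (y axis), with 95% confidence intervals from the limma fit over all probe sets. Filled points mark the representative probe set of a gene. The interval of Erg 1440244_at, from 0.12 to 1.13, is the one that leaves out 0.

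The genes that work with the heptad were taken from lists chosen from textbook roles. Of 22 cofactors and E proteins, 0 passed the adjusted threshold in limma, and 1 higher and 0 lower were at an unadjusted p under 0.05, where 3.53% and 2.78% of all genes were. The high arrays both lay above for 6 and both below for 3, where 15.6% and 20.8% of all genes did, and the median difference was -0.03. Runx1t1, a corepressor of the ETO family, was at 6.59 and 5.60 on the high arrays against 4.76 and 3.95 on the low ones, a difference of 1.74 (SE 0.459, limma adjusted p = 0.762), while its other 5 probe sets ranged from -0.50 to 0.74. Ssbp3, which binds and stabilises LDB1, was at 9.49 and 9.89 against 9.11 and 9.13, a difference of 0.57 (SE 0.218, limma adjusted p = 0.779), and its other probe set gave 0.12. Id2, an inhibitor of E proteins, gave 0.99 (SE 0.402, limma adjusted p = 0.781), and its other probe sets gave -0.15 and 0.19. In these genes the N-myc high arrays lay above, but the value depended on the probe set.

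Of the 18 measured paralogs of the members, out of 19 listed, 0 passed the adjusted threshold in limma. At an unadjusted limma p under 0.05, 2 were higher (Ets1 and Ldb2) and 2 lower (Gata1 and Runx3), where 3.53% and 2.78% of all genes were. Separation was upwards for 3 and downwards for 5, near the 15.6% and 20.8% of all genes, with a median difference of 0.03. Gata1, the erythroid and megakaryocyte relative of Gata2, was at 6.80 and 6.76 on the high arrays against 7.66 and 7.50 on the low ones, a difference of -0.80 on its single probe set (SE 0.18, limma adjusted p = 0.762). Runx3 was at 8.08 and 8.17 against 8.66 and 9.04, a difference of -0.73 (SE 0.215, limma adjusted p = 0.769), and its other probe set gave -0.34. Ldb2, the relative of Ldb1, went the other way, at 5.11 and 5.35 against 4.37 and 3.64, a difference of 1.23 (SE 0.308, limma adjusted p = 0.762), with 0.79 and 1.25 on its other probe sets. Gata2 and Gata1 were thus both lower on the N-myc high arrays of both mice, and Ldb1 and Ldb2 lay on opposite sides. Gfi1, the relative of Gfi1b, had a mean difference of opposite sign to that of Gfi1b. This value of 1.56 was the highest of the list but was not at an unadjusted limma p under 0.05. The spread of Gfi1 over the arrays is not reported here.

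Genes whose enhancers are textbook targets of these factors showed no common direction. Of 19 measured, out of 20 listed, 0 passed the adjusted threshold in limma. At an unadjusted limma p under 0.05, 0 were higher and 2 lower, where 3.53% and 2.78% of all genes were. Separation was upwards for 4 and downwards for 4, again near 15.6% and 20.8% of all genes, and the median difference was 0.04. The lower ones were Gata1 (above) and Itga2b, the platelet integrin alpha chain, at 8.74 and 8.77 on the high arrays against 9.39 and 9.21 on the low ones (-0.55, SE 0.182, limma adjusted p = 0.779). Emcn, the surface mucin endomucin of stem and endothelial cells, was at 8.25 and 8.32 against 7.95 and 7.42 (0.60, SE 0.247, limma adjusted p = 0.787). This list shares 2 genes with the cofactors and 2 with the paralogs. Of the marker lists read below, it shares 5 genes with the endothelial one (Cdh5, Emcn, Kdr, Pecam1 and Tek). It also shares Itga2b with the megakaryocyte list and Kit with the stem cell list, so these lists are not separate readings.

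**Figure D5:**
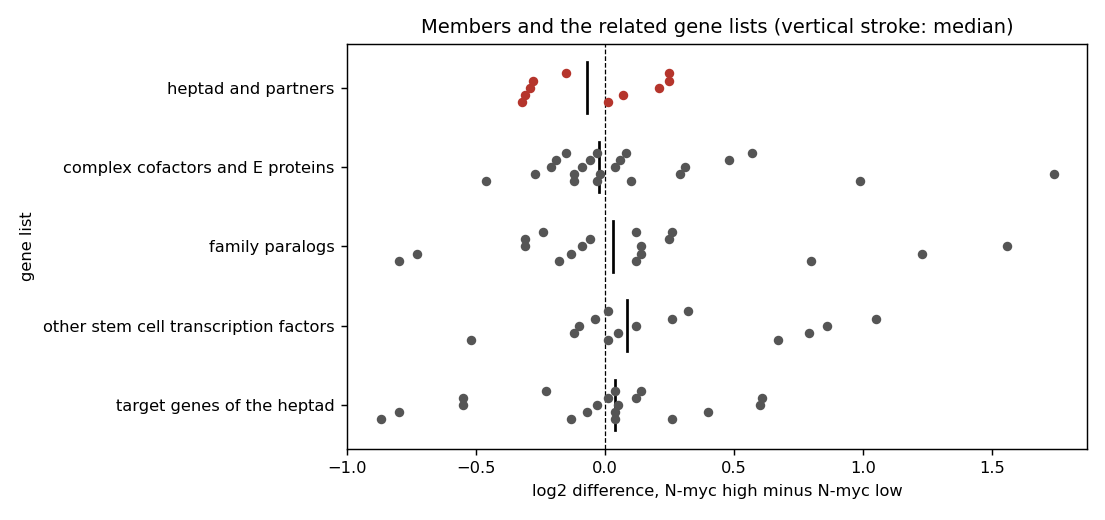
Log2 difference N-myc high minus N-myc low (x axis) of the 10 members (red) and of the genes in 4 related lists (grey), 1 row per list, with the median of each list as a vertical stroke. The members lie between -0.32 and 0.25 and the lists spread more widely around medians of -0.03 to 0.09.

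Several members are also expressed in other blood and vessel cells, so marker levels were read beside them, each list with its markers above and below (15.6% and 20.8% of all genes) and the differences of its 2 genes of smallest unadjusted limma p. The stem cell list had 3 of 6 markers above and 1 below, at 8.85 and 8.98 on the high arrays against 8.80 and 8.57 on the low ones. Of these markers 4 were higher and 2 lower, with a list median of 0.48. Kit was at 10.17 to 10.53 over the 4 arrays and Slamf1, which encodes CD150, at 8.01 to 8.99. Procr, a stem cell marker, was higher on both N-myc high arrays (1.19), and Cd48, which the sort selects against, lower (-2.21). The erythroid list had 3 of 9 markers above and 3 below. Its mean log2 value was 7.28 and 7.01 on the high arrays against 7.60 and 7.27 on the low ones. Its leading genes had opposite signs, with the factor Klf1 at -0.93 and the membrane protein Rhag at 0.63. The mast cell and basophil list had 0 of 9 above and 5 below, at 4.12 and 4.51 against 4.65 and 4.46, with the protease genes Cpa3 at -1.59 and Tpsab1 at -0.39. The megakaryocyte list had 2 of 8 above and 4 below, at 7.53 and 7.57 against 7.42 and 7.62, with Vwf, also a stem cell gene, at 1.88, Gp1bb at 7.37 and 7.02 against 7.86 and 8.53, and a list median of -0.14. The granulocyte and monocyte list had 0 of 9 above and 7 below, at 11.00 and 10.63 against 11.20 and 11.18, with the granule enzymes Mpo at -0.63 and Elane at -0.83. The endothelial list had 5 of 10 above and 1 below, at 5.99 and 6.43 against 5.89 and 6.10. Emcn was at 0.60, and Ramp2, at 0.93, overlapped between the groups. The one below was Cdh5, an endothelial cadherin, at -0.23. Pecam1, at -0.87, was lower in both mice but overlapped. Of the 10 endothelial markers 7 were higher and 3 lower, with a list median of 0.40. The macrophage list had 3 of 10 above and 1 below, at 5.74 and 5.64 against 5.46 and 4.96. Its C1qb, a complement gene of macrophages, was at 8.24 and 8.48 on the high arrays against 5.76 and 5.64 on the low ones. The difference of 2.66 had the smallest unadjusted limma p of all 18193 genes (7.55e-05, adjusted p = 0.671). Mrc1, a macrophage lectin, was at 2.26. The related C1qa and C1qc gave 0.32 and 0.26 and overlapped between the groups. Of the 10 macrophage markers 6 were higher and 4 lower, with a list median of 0.20. The B cell list had 2 of 8 above and 1 below, at 4.97 and 5.06 against 4.58 and 4.98. Cd79a was at 0.65 and Vpreb1 at 2.45, the latter with 4.16 in mouse 1 and 0.75 in mouse 2. Of the 8 B cell markers 3 were higher and 5 lower, with a list median of -0.18. RMA gives no zero, so no marker could be read as absent, and the part of these cells in the members' differences was not tested.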

How the data were processed

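The authors deposited log2 probe set intensities that they made with RMA (background correction, quantile normalisation across arrays and summary per probe set), per the submitters' processing notes. These list affy and limma too, with no version, chip definition or filter. Quantile normalisation takes away any shift common to a whole array, and having 4 arrays limits the precision. Of 45101 probe sets, 34945 carried 1 gene name and gave 18193 genes. Another 932 carried several names, 9160 were unnamed here and 64 were controls, and none of these entered the limma fits. Symbols were checked through Entrez numbers in the RefSeq table of GRCm38.p6.

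Groups were compared with limma 3.58.1 in R 4.3.3 (lmFit and eBayes, no covariate) over all genes and, separately, over all probe sets, with Benjamini-Hochberg adjustment and a threshold of 0.05. Standard errors and 95% confidence intervals are those of the moderated fit. Nothing says how separate the samples within a group are beyond their mouse number, so p-values measure the spread between these samples. Arrays with the same mouse number were read as the same source, from the labels. Over genes, their deviations from the group means correlated at r = 0.0492. The fit with the mouse as a replicate block was an alternative. The others were leaving out each array, the brighter 50% of features, centring, a second quantile normalisation, a trended robust prior and the mean of probe sets. The method was tested on simulated data.

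All members were named, and the 3 genes of smallest unadjusted p from each of 4 related lists; the genes of 8 marker lists were read beside them. Xist, Eif2s3y, Ets1, Gfi1 and the markers named singly were chosen after their values were seen. The members and lists were chosen with earlier results of these data known.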

Additional observations from a re-analysis of the deposited data

How the results depend on the processing

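Over 10 alternatives, 0 of 100 member values passed the adjusted threshold in limma (lowest adjusted p = 0.678), and 95 kept their sign. Many of these 95 could not have changed. The mouse block, the trended robust prior and the brighter 50% leave each mean difference as in the main fit. Leaving out 1 array cannot reverse a member whose groups do not overlap. The other 5 values changed sign when 1 array was left out. Erg gave -0.22 without N-myc high of mouse 1 and -0.13 without N-myc low of mouse 2, and its values with an array left out ranged from -0.22 to 0.36. Etv6 gave -0.13 without N-myc high of mouse 1 and -0.04 without N-myc low of mouse 1, in a range from -0.13 to 0.16. Tal1 gave -0.04 without N-myc low of mouse 2, in a range from -0.04 to 0.46. Lyl1 kept its sign but ranged from -0.53 to -0.09. Leaving an array out leaves 1 array in a group, which is then assumed to vary like the others. The ranges were -0.37 to -0.20 for Gata2, -0.44 to -0.20 for Gfi1b, -0.39 to -0.17 for Runx1, -0.23 to -0.07 for Ldb1, 0.18 to 0.33 for Lmo2 and 0.18 to 0.31 for Fli1. With the mouse as a replicate block, 0 genes passed the adjusted threshold in limma and 1098 were at an unadjusted p under 0.05, and no adjusted call existed that the block could change. Under the alternatives that kept all arrays, 0 genes and 0 probe sets passed the adjusted threshold in limma. In these fits 6.04% to 6.72% of the genes tested were at an unadjusted limma p under 0.05, beside 6.31% in the main fit. Among the brighter 50% it was 606 of 9096 genes (6.66%). Non-overlapping members numbered 5 of 10 after centring (36.5% of all genes), 6 after a second quantile normalisation (36.4%) and 5 with the mean of probe sets (37.1%), where Erg entered and Runx1 and Fli1 left, and Ldb1 was the one lost by centring; these counts were added after seeing the data. Centring and the second quantile normalisation moved the median of all genes by 0.03 and 0.04.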

Other observations

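Other transcription factors of stem cells, outside the heptad and its complex, included 3 of higher level on both N-myc high arrays, Prdm16, Mecom and Hlf. Of 14 measured, out of 16 listed, both N-myc high arrays lay above for 4 and below for 1, beside 15.6% and 20.8% of all genes, and the median difference was 0.09. In limma 0 passed the adjusted threshold, while 3 higher and 0 lower had an unadjusted p below 0.05, where 3.53% and 2.78% of all genes did. Prdm16, which maintains stem cells, was at 9.56 and 9.66 on the high arrays (mouse 1 and 2) against 8.87 and 9.01 on the low ones, a difference of 0.67 (SE 0.181, limma adjusted p = 0.767), with 0.20 to 1.23 on its other 3 probe sets. Mecom, which encodes the stem cell factor EVI1, was at 9.99 and 10.70 against 9.23 and 9.37, a difference of 1.05 (SE 0.295, limma adjusted p = 0.769), but its other 2 probe sets gave 0.04 and 0.08. Hlf was at 9.82 and 10.03 against 9.35 and 8.92, a difference of 0.79 (SE 0.235, limma adjusted p = 0.769), with 0.11 on its other probe set. The list shares 4 genes, Hhex, Meis1, Myb and Nfe2, with the heptad's target genes.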
